A study of Mus musculus with 24 samples.

Results

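The change of m6A enrichment between Mettl3 KO and RBC embryonic stem (ES) cells was measured gene by gene, as the difference between the lines of the log2 ratio of m6A immunoprecipitate (IP) over input. Of 47937 gene rows in the MeRIP-seq (methylated RNA immunoprecipitation sequencing) count table, the 21524 that passed the filter on low counts are described. The comparison rests on 8 of the 24 libraries of the series, an input and an IP of replicates 1 and 2 of each line. RBC is a mouse ES cell line of mixed 129/Sv and C57Bl6 origin that carries BirA-V5 at Rosa26 and Cre-ERT2, and the Mettl3 KO line is a single clone, 2c4d, derived from RBC, so that both lines carry these alleles and differ by the Mettl3 lesion and by whatever else sets the clone apart. WT26, a wild type ES line, and Mettl14 KO, a single clone (A10) made from WT26, were measured in the same way and serve here as a second control line and a second knockout. The labels name no treatment of the cells. All lines were grown feeder-free on gelatin with serum replacement and LIF, and nuclear RNA was fragmented, split into input and m6A IP, depleted of rRNA and sequenced.

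N6-methyladenosine (m6A) is the most abundant internal modification of mRNA. It is placed on nascent transcripts by a complex in which Mettl3 is the catalytic subunit and Mettl14 a partner that positions the RNA, with Wtap, Virma, Zc3h13 and Rbm15 as accessory subunits. The enzyme prefers a short motif of the GGAC type, and sites concentrate in long internal exons and around stop codons. Readers of the Ythdf family direct marked mRNAs to decay, and in ES cells m6A is known on the transcripts of several pluripotency regulators.

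The 16 MeRIP-seq libraries held 9394163 to 28441282 counts, and the 8 compared here 11247530 to 28441282. The same-group libraries differed by 23.96 to 183.9 times the chi-square of counting noise per degree of freedom, so none was a copy of another. The labels call the replicates biological but do not name separate cultures, so that the p-values describe the spread between these libraries. All 10 ES cell markers were above 10 counts in some input library, and their summed normalized counts were 18400 and 17200 in the RBC inputs against 11600 and 10600 in the Mettl3 KO inputs. Summed markers of primitive endoderm (124 to 162), trophectoderm (40.4 to 72.7), mesoderm (69.4 to 94.7) and fibroblasts (20.2 to 108) stayed low in all 4 inputs, and those of neural cells were at 442 to 709, most of it from Nes and Sox1. In bulk RNA fewer cells of a type and less RNA per cell cannot be told apart, and the part of the lower ES marker level in the results below was not tested. The Mettl3 row had 537 and 538 normalized counts in the RBC inputs and 553 and 474 in the Mettl3 KO inputs. A count over the whole gene does not check a small lesion, so the knockout rests on its label. The m6A-modified EGFP spike-in is not among the counted features, so every value below is relative to the other RNAs of its library, and a loss shared by all RNAs would not be seen.

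The motif that the enzyme prefers can be shown beside the genes on which the results turn. GGACT was searched on the sense strand of 1 protein-coding GENCODE transcript (the longest) per gene, and the copy nearest to the stop codon is printed in capitals within 21 bases of the GRCm38 sequence. The first 6 windows belong to transcripts that fell in Mettl3 KO and lie 73 to 319 bases after the stop codon.
Zfp36l2: gagcacttGGACTcgaactct
Klf4: acatgcccGGACTtacaaaat
Slc7a5: tgaggcctGGACTttctgact
Dgcr2: tcagtgggGGACTtgaagggg
Wtap: atgccgtcGGACTattccgaa
Sall1: ggcccctgGGACTatgaacta
These lie at chr17:84185641-84185661, chr4:55527794-55527814, chr8:121882775-121882795, chr16:17842436-17842456, chr17:12975052-12975072 and chr8:89028284-89028304, all on the minus strand.

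The next 4 windows belong to transcripts that stayed enriched in Mettl3 KO.
Purg: aggaataaGGACTaaatccct
Scand1: ggctccctGGACTgacaccct
Bloc1s4: ccgcatgaGGACTccagcgag
Ier5l: cggcgcctGGACTcgagccat
They lie at chr8:33416654-33416674 on the plus strand and at chr2:156311885-156311905, chr5:36747962-36747982 and chr2:30472804-30472824 on the minus strand, the last of them before the end of the stop codon. These are examples with a copy near the stop codon. In other genes that fell the nearest copy lay farther away, at -1524 bases from the end of the stop codon in Fzd3 (upstream) and at 758 bases in Slc19a2 (downstream). Whether a given copy is methylated was not measured. The transcript of Rplp0, which rose, held 0 copies, as did 7.46% of the 10956 protein-coding genes with a mean of 50 or more normalized counts over the 8 libraries.

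Enrichment was more even across genes in Mettl3 KO than in any other line. Among 12716 genes with a mean of 50 or more normalized counts over the 16 libraries, the interquartile range of log2 IP/input was 0.929 and 1.81 in RBC replicates 1 and 2, and 0.723 and 1.18 in Mettl3 KO. In WT26 it was 1 and 1.85, and in Mettl14 KO 0.951 and 1.77, so that the Mettl3 KO value was the lowest of the 4 lines in each replicate. Genes above 1 on the log2 scale numbered 1447 and 3611 in RBC against 718 and 2244 in Mettl3 KO. Plotted on WT26 of the same number, enrichment in RBC had slopes of 0.851 and 0.937 and in Mettl14 KO of 0.895 and 0.939. The slopes of Mettl3 KO were 0.68 and 0.537. The IP of replicate 2 separated genes more strongly than that of replicate 1 in every line, and the difference between the numbers was itself narrower in Mettl3 KO (interquartile range 0.688) than in the other lines (1.05 to 1.08).

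**Figure D1:**
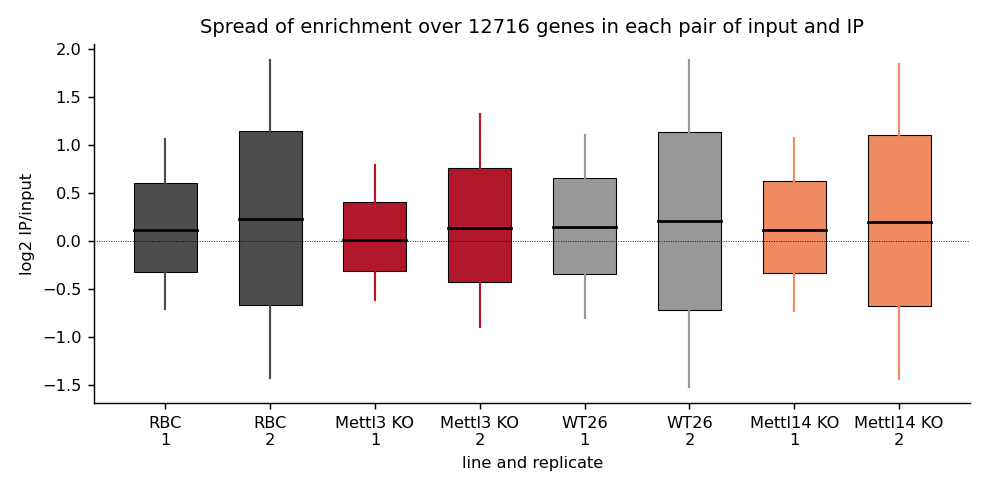
Spread of log2 IP/input over 12716 genes in each pair of input and IP (boxes, quartiles; bar, median; lines, 10th to 90th percentile). In both replicates the Mettl3 KO box is the shortest, with interquartile ranges of 0.723 and 1.18 against 0.929 and 1.81 in RBC.

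With only the pairing of each input with its IP in the model, no gene passed the threshold. At an adjusted p of at most 0.05 (edgeR quasi-likelihood test, Benjamini-Hochberg) 0 genes were lower and 0 higher, each 0% of those tested, and DESeq2 also gave 0 and 0. At an unadjusted p under 0.05, 622 were lower and 289 higher, and the smallest adjusted p was 0.776. In this model the gap between replicates 1 and 2 counts as error. Over genes, this gap correlated at 0.764 to 0.778 among RBC, WT26 and Mettl14 KO. Mettl3 KO shared it less, at 0.525 to 0.571 with each of these lines. The median SE of a change was 0.407 for well-counted genes. In simulated libraries with the same gap in all lines the model called 0 of 50 genes lowered by 2 log2 units.

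Adding a coefficient for the replicate number, a choice made after the data had been seen, brought the median SE to 0.221 and the biological coefficient of variation from 0.235 to 0.0991. Pairs alone had found 2975 genes (13.8%) enriched in RBC, 502 (2.33%) in Mettl3 KO and 3260 (15.1%) in WT26. With the number, 1694 genes (7.87%) had lower and 960 (4.46%) higher enrichment in Mettl3 KO than in RBC, 448 of them lower and 197 higher by more than 1. The median change was -0.808 over the lower genes and 0.789 over the higher ones, and -0.0253 over all genes tested. In the simulated libraries this model called 48 of 50 genes lowered by 2 log2 units, 28 of 50 lowered by 1 and 3 of 50 lowered by 0.5. Of 22421 unchanged features 9 were called. These libraries were made with the same gap between replicates in all lines and with the 0.0991 of this model. In the data the gap was narrower in Mettl3 KO (interquartile range 0.688) than in the other lines (1.05 to 1.08). The simulation therefore cannot give the error rate of the calls. All calls below come from the model with pairs and number. With the number in the model in place of the pairs, 0 genes were lower, 0 higher and 0 lost enrichment (smallest adjusted p 0.0561, edgeR), while 2400 were lower and 1635 higher at an unadjusted p under 0.05, so the calls need both terms. They leaned on replicate 2 of RBC. Without that pair 11 genes were lower and 13 higher, and 15 of the 141 called genes named by rule still passed, none with the other direction.

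The counts moved with the other libraries as well. Without RBC replicate 1 there were 412 lower and 238 higher genes, without Mettl3 KO replicate 1 there were 3044 and 2919, and without Mettl3 KO replicate 2 there were 650 and 76. Scaling by library size moved the median change of all genes to -0.111 and gave 2023 lower and 441 higher genes, 82.1% of calls lower against 63.8%. The direction of single genes was steadier than their number. Of the 12716 genes, 5698 were lower in both replicates and 4361 higher in both, so that 79.1% had the same sign. The replicates differed in size, with a standard deviation of the change of 0.454 in replicate 1 and 0.804 in replicate 2.

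**Figure D2:**
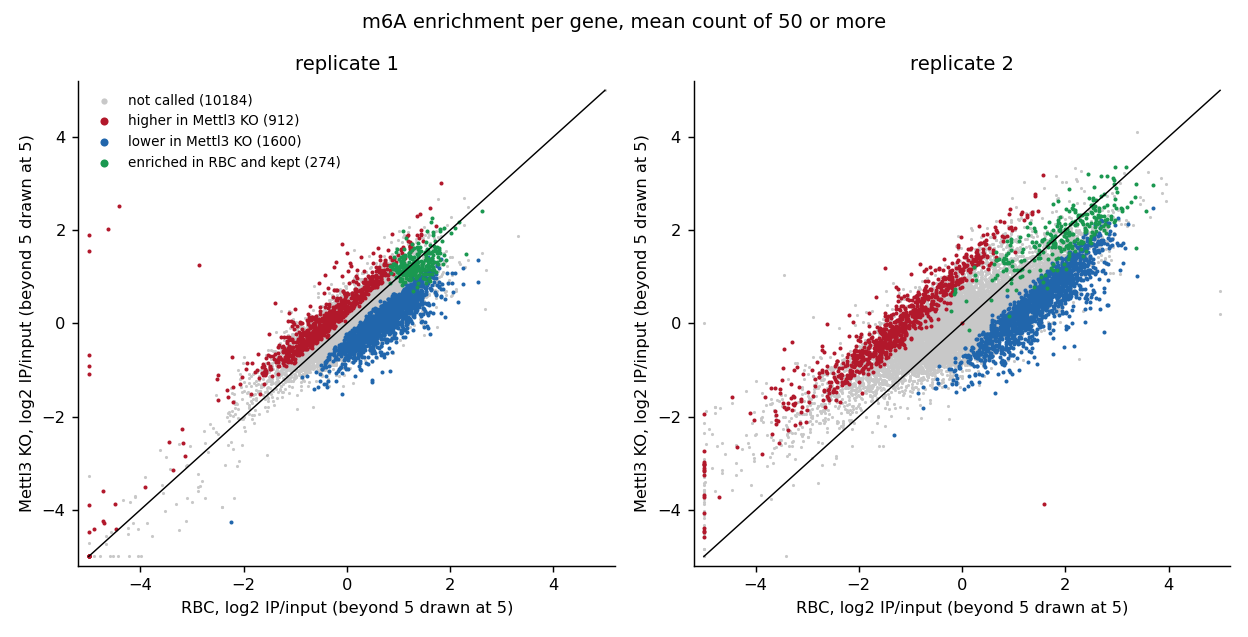
log2 IP/input per gene in Mettl3 KO against RBC, for each replicate, with the diagonal of no change. Genes called lower (blue) lie below it mostly at positive RBC values, and genes called higher (red) above it mostly at negative ones, with a wider spread of RBC values in replicate 2.

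The same test found few genes that differed between the control lines. RBC against WT26 gave 1 lower (0.00465%) and 3 higher genes (0.0139%) with the number in the model, and 0 and 0 without it, where 59 and 74 had an unadjusted p under 0.05. Over genes with a mean count of 50 or more, the interquartile range of the change was 0.236 between the control lines and 0.821 between Mettl3 KO and RBC. Set against WT26 in place of RBC, Mettl3 KO had 2144 lower (9.96%) and 1651 higher genes (7.67%). These comparisons share libraries with the one described here.

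Genes were also chosen by their enrichment in WT26, whose libraries do not enter the difference between Mettl3 KO and RBC. They do enter the shared spread and the number coefficient behind the calls. With only the 8 RBC and Mettl3 KO libraries 797 of all genes were lower and 465 higher. Of the 2380 genes enriched in WT26 (11.1% of those tested, adjusted p at most 0.05 and log2 IP/input above 1), 1957 had a negative change and 550 (23.1%) fell in Mettl3 KO, while 32 (1.34%) rose. Their median change was -0.551, with quartiles of -0.833 and -0.196, and it was negative in replicate 1 (-0.432) and in replicate 2 (-0.694). The 2158 genes depleted from the WT26 IP moved the other way. Their median change was 0.558, with 0.277 in replicate 1 and 0.914 in replicate 2, and 220 of them (10.2%) rose while 1 fell. In bins of WT26 enrichment the median change went from 0.621 at -2 and below (233 genes) over 0.0829 between -0.5 and 0 (2976 genes) to -0.571 between 1.5 and 2 (314 genes), with 32.5% of that bin lower. Above 2 it was -0.412, in 28 genes.

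Of 2213 genes enriched in RBC (10.3%), 572 were lower in Mettl3 KO (25.8%, against 7.87% of all genes), 282 stayed enriched with the 95% confidence interval of their change within 1 log2 unit of no change, and 1362 met neither rule. The sets overlapped in 3 genes, which were lower but by little. The RBC libraries both chose these genes and entered their change, so these counts are a description. In Mettl3 KO itself 1184 genes (5.5%) were enriched, 585 of them also in RBC. The 572 genes that lost enrichment had a median log2 IP/input of 1.27 in RBC and 0.401 in Mettl3 KO, against 1.23 in WT26 and 1.15 in Mettl14 KO, and 557 of them were no longer enriched in Mettl3 KO. The 282 genes that kept it had a median of 1.34 in RBC, 1.25 in Mettl3 KO and 1.37 in WT26. Of all 1694 lower genes 1122 had not passed the threshold of enrichment in RBC, although 1611 had a positive value there. In 1267 of the 1694 both Mettl3 KO values lay below both RBC values, against 4571 of all 21524 genes tested (21.2%). The calls were made from these same values, so the gap between the shares follows from the choice of genes.

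Among the lower genes with the largest changes, Cbr3 and Fat2 were the only named protein-coding genes outside predicted gene models. Cbr3, a carbonyl reductase (16:93683215-93690990), had a log2 IP/input of 2.25 and 3.11 in RBC against 0.85 and 1.29 in Mettl3 KO. The change was -1.67 ± 0.33 (SE, adjusted p = 0.0053). For Fat2, an atypical cadherin (11:55250609-55336564), the values were 1.82 and 2.39 in RBC against 0.23 and 0.97 in Mettl3 KO, a change of -1.72 ± 0.51. In both genes the lines did not overlap, as the choice required. Their transcripts were also more abundant in Mettl3 KO by RNA-seq, by 1.74 log2 units for Cbr3 and 4.06 for Fat2. The other 10 of the 12 largest falls, from -1.66 for Gm11839 to -2.11 for Gm7701 and Gm17907, were predicted or short gene models, 7 of them processed pseudogenes, and several lay inside other genes on the same strand (Gm3695 and Gm4787 in Cox16, Gm16074 in Mthfd1l, Mir5114 in Scd2), so that their reads can belong to a parent or host transcript.

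The genes of this paragraph have some of the smallest p-values and were chosen after their values were seen. Slc19a2, a thiamine transporter, had a log2 IP/input of 0.17 and 0.69 in RBC against -1.13 and -1.08 in Mettl3 KO, a change of -1.52 ± 0.18 (adjusted p = 0.000118). Slc7a5, the light chain of the large neutral amino acid transporter, went from 0.12 and 0.75 to -0.83 and -0.82 (-1.255 ± 0.18). Dgcr2, a membrane receptor, went from 0.49 and 1.35 to -0.64 and -0.52 (-1.49 ± 0.19). For each of these genes the normalized count was higher in the IP than in the input in RBC, and lower in Mettl3 KO. Fzd3, a Wnt receptor, did the same, with 0.87 and 1.13 in RBC against -0.61 and -0.43 in Mettl3 KO (-1.52 ± 0.20). With the number in the model, Slc19a2, Slc7a5, Dgcr2 and Fzd3 had not passed the threshold of enrichment in RBC. B3gnt7, a glycosyltransferase, fell by 1.35, and the amino acid transporters Slc1a4 and Slc38a2 fell by 1.27 and 1.15. Slc45a4, Crkl, Shroom2, Uqcrfs1 and Dag1 fell by 1.03 to 1.30.

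Gene lists are described below by their shares of lower and higher members, to be read beside those of all genes tested, and by their median beside -0.0253. The lists also differ in their enrichment in RBC. Among all 2213 genes enriched in RBC 25.8% were lower and 1.31% higher, with a median change of -0.619. Whether a list changed beyond its enrichment in RBC was not tested. Of 13 m6A writer genes tested 5 were lower (38.5%) and 0 higher, against 7.87% and 4.46% of all genes, with a median change of -0.309. The 5 include Mettl4, which is not part of the complex. Wtap, the splicing-associated subunit that anchors the catalytic pair, had a log2 IP/input of 0.65 and 1.33 in RBC against 0.02 and -0.06 in Mettl3 KO, a change of -0.995 ± 0.20 (adjusted p = 0.00612). The scaffold Virma fell by 0.61, the adaptors Rbm15 and Rbm15b by 0.59 and 0.54, and Mettl4, another adenine methyltransferase, by 0.68. Zc3h13 had a change of -0.31 (adjusted p = 0.218) and Mettl16, an independent methyltransferase, of 0.09. Mettl3 itself had -0.38 and -0.81 in RBC against -0.26 and -0.22 in Mettl3 KO, with a change of 0.34 ± 0.21 (adjusted p = 0.296), and Mettl14 had -0.29 ± 0.21. Of 18 reader and eraser genes 2 were lower (11.1%) and 4 higher (22.2%), with a median of 0.114. The lower ones were the cytoplasmic decay readers Ythdf1 (-0.77) and Ythdf2 (-0.67), and the higher ones were Fmr1 (0.74), Hnrnpa2b1 (0.70), Hnrnpc (0.66) and Fxr2 (0.61), which were depleted from the IP in most RBC values.

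Of 40 pluripotency regulators tested 14 were lower (35%) and 3 higher (7.5%), against 7.87% and 4.46% of all genes, with 33 negative changes and a median of -0.462. Klf4, a naive-state transcription factor (4:55527143-55532466), had a log2 IP/input of 1.43 and 2.48 in RBC against 0.71 and 1.44 in Mettl3 KO, a change of -0.88 ± 0.17 (adjusted p = 0.00469), and its Mettl3 KO replicate 2 reached its RBC replicate 1. Sall1, a zinc finger factor, went from 1.05 and 1.83 to 0.15 and 0.90 (-0.91 ± 0.16), without overlap. Prdm14, a repressor of differentiation, went from 0.31 and 1.03 to -0.50 and -0.15 (-0.99 ± 0.21). Spry4 (-0.81), Sall4 (-0.77), Tbx3 (-0.75), Nanog (-0.61) and Esrrb (-0.605) also fell. Not all of them did, since Tet2 (-0.46, adjusted p = 0.0603), Zfp42 (-0.40), Rif1 (-0.24) and Tdgf1 (-0.08) did not pass. Dppa5a rose by 0.76, from 0.49 and -0.38 to 0.75 and 0.90, and its RNA-seq level was 2.03 log2 units lower in Mettl3 KO.

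Of 35 immediate early and short-lived mRNAs tested, 21 were enriched in RBC, against 10.3% of all genes. Of the 35, 14 were lower (40%) and 1 higher (2.86%), against 7.87% and 4.46% of all genes, with a median change of -0.57. Zfp36l2, an AU-rich element binding protein that promotes mRNA decay (17:84183931-84187947), had a log2 IP/input of 0.93 and 2.13 in RBC against 0.13 and 0.30 in Mettl3 KO, a change of -1.30 ± 0.21 (adjusted p = 0.00241). Its paralog Zfp36l1 fell by 1.04. The stress gene Gadd45a fell by 1.09, the ERK phosphatase Dusp6 by 1.06, the transcription factor Klf6 by 1.055 and the antiproliferative gene Btg1 by 0.96. In these 6 genes both Mettl3 KO values lay below both RBC values, as they did in 1267 of all 1694 lower genes. Egr1 (-0.45, adjusted p = 0.0916) and Sgk1 (-0.27) did not pass.

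Signalling genes moved in 1 direction among those called. Of 46 genes of the Nodal, BMP, FGF and Wnt pathways 16 were lower (34.8%) and 0 higher, against 7.87% and 4.46% of all genes, with 39 negative changes and a median of -0.451. Acvr1b, a receptor of Nodal and activin, went from 0.24 and 0.995 to -0.60 and -0.10 (-0.96 ± 0.18, adjusted p = 0.00469). Its intracellular antagonist Skil fell by 0.87, and the Wnt receptors Fzd7 and Lrp6 by 0.77 and 0.67. Apc, which limits beta-catenin, had a change of -0.45 (adjusted p = 0.0692).

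Chromatin genes went both ways. Of 35 H3K4 and H3K36 methyltransferase and remodeler genes 10 were lower (28.6%) and 2 higher (5.71%), against 7.87% and 4.46% of all genes, with a median of -0.389. The methyltransferases Kmt2b (-0.72), Kmt2d (-0.685) and Setd2 (-0.61) and the acetyltransferases Crebbp (-0.64) and Ep300 (-0.58) fell, and the remodeler subunit Smarcc1 rose by 0.73. Of 31 Polycomb genes 2 were lower (6.45%, under the share of all genes) and 4 higher (12.9%), with a median of -0.259. The core subunits Ezh2 (0.77), Rbbp4 (0.71), Eed (0.66) and Rbbp7 (0.56) rose, and the chromobox genes Cbx2 (-0.75) and Cbx6 (-0.62) fell. Of 30 genes of H3K9 methylation and HP1, the proteins of heterochromatin, 6 were lower and 6 higher (20% each), with a median of 0.104. Setdb2 (-0.81), Daxx (-0.74), Adnp (-0.72) and Atf7ip (-0.66) fell, while the maintenance DNA methyltransferase Dnmt1 (0.79) and Cbx5, which encodes HP1 alpha (0.73), rose. Atrx, at 0.64 and 0.55 in RBC against 0.71 and 0.62 in Mettl3 KO, had a change of 0.07 ± 0.16.

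No zinc finger or protocadherin gene was called higher. Of 375 Zfp zinc finger genes, whose finger arrays are often coded in a single exon, 101 were lower (26.9%) and 0 higher, against 7.87% and 4.46% of all genes. There were 334 negative changes, and the median was -0.505. Of the 375, 184 were enriched in RBC, and among all genes enriched there 25.8% were lower, with a median change of -0.619. Zfp169 went from 1.06 and 1.92 to 0.02 and 0.63 (-1.16 ± 0.20, adjusted p = 0.00261), and Zfp446, Zfp598 and Zfp59 fell by 1.16, 1.06 and 0.97. The list still held 23 genes that kept their enrichment, and Zfp57, which guards imprinted loci, was at 0.57 and 0.90 in RBC against 0.40 and 0.998 in Mettl3 KO (-0.04 ± 0.16). Of 27 clustered protocadherin genes, cell surface adhesion molecules, 13 were lower (48.1%) and 0 higher, with a median of -0.728, among them Pcdhga11 (-1.28), Pcdhgc5 (-1.18), Pcdhgc4 (-1.17) and Pcdhgb5 (-1.14). These genes share their constant exons, so reads cannot be given to single members with certainty.

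Of 32 nuclear long noncoding RNAs 4 were lower and 4 higher (12.5% each, against 7.87% and 4.46% of all genes), with a median of 0.116. Tug1 went from 1.28 and 2.14 to 0.39 and 1.23 (-0.90 ± 0.17, adjusted p = 0.00393), and Lncenc1 and Snhg14 fell by 0.815 and 0.68. Malat1, the most abundant nuclear speckle RNA, had 0.24 and 0.42 in RBC against 0.20 and 0.42 in Mettl3 KO, a change of -0.02 ± 0.17. Gas5, a snoRNA host gene, rose by 0.685.

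**Figure D3:**
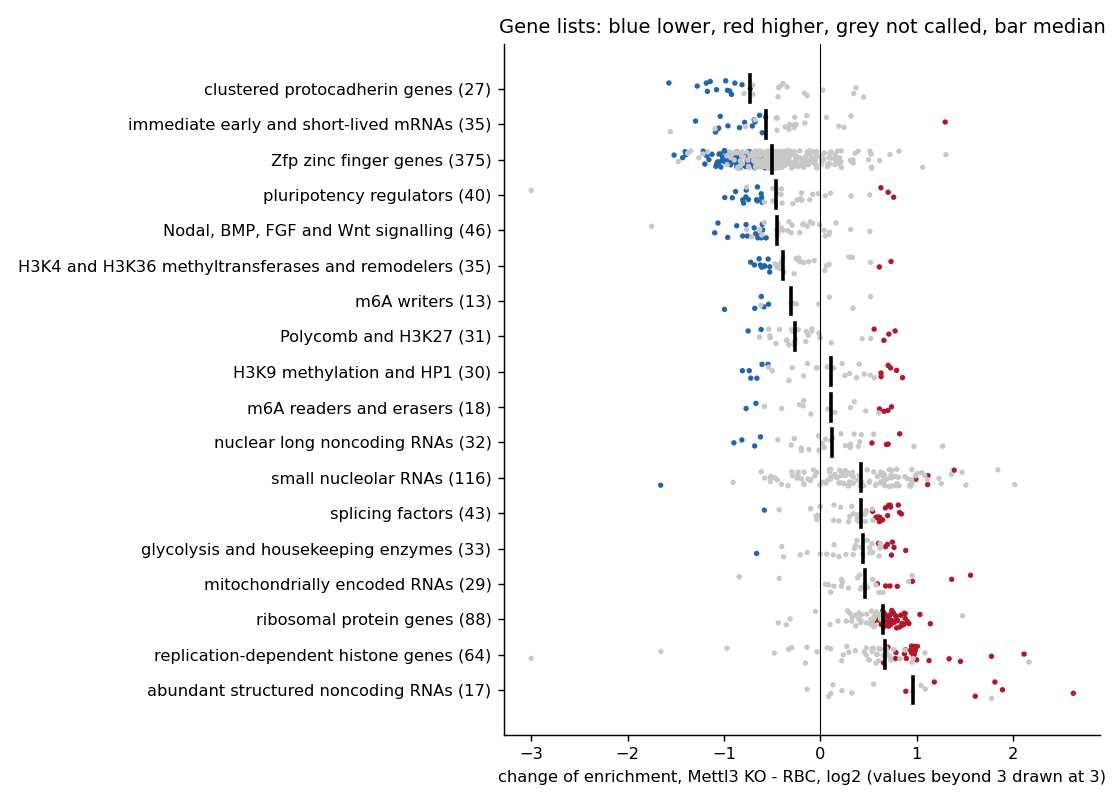
Change of enrichment (log2, Mettl3 KO minus RBC) of every tested member of 18 gene lists, with the list median as a bar. Medians run from -0.728 for clustered protocadherin genes to 0.957 for abundant structured noncoding RNAs.

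Against these losses stood transcripts that met the rule of keeping enrichment. Purg, a purine-rich element binding protein (8:33386325-33417467), had a log2 IP/input of 2.03 and 3.195 in RBC against 1.94 and 2.49 in Mettl3 KO, a change of -0.40 ± 0.24 (adjusted p = 0.265). Bloc1s4, a subunit of a complex for lysosome-related organelles, had 2.10 and 3.19 in RBC against 2.04 and 3.35 in Mettl3 KO (-0.01 ± 0.28). Scand1, a small SCAN domain protein, had 1.66 and 3.57 in RBC against 2.25 and 2.42 in Mettl3 KO (-0.04 ± 0.40), on as few as 8.835 normalized counts in an RBC input. In all of these the lines overlapped. Tagap, a GTPase-activating protein, and Ier5l, an immediate early relative, had changes of -0.195 ± 0.37 and -0.33 ± 0.26. Also among the 8 most enriched kept genes were the mitochondrial tRNA mt-Ts1, which overlaps mt-Co1 on the other strand, Gm44297, which overlaps Hist1h2af on the other strand, and the pseudogene Gm28661, and reads of all of these are uncertain. Under the model with pairs alone 58 genes met the rule of keeping, among them Tmsb4x, which binds actin monomers, at 1.75 and 1.91 in RBC against 1.63 and 2.29 in Mettl3 KO, the RNA polymerase subunit Polr1d, the mitochondrial genes Ndufa2 and Mrpl54, and Ccdc124, D8Ertd738e, Trir and Gm15446.

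**Figure D4:**
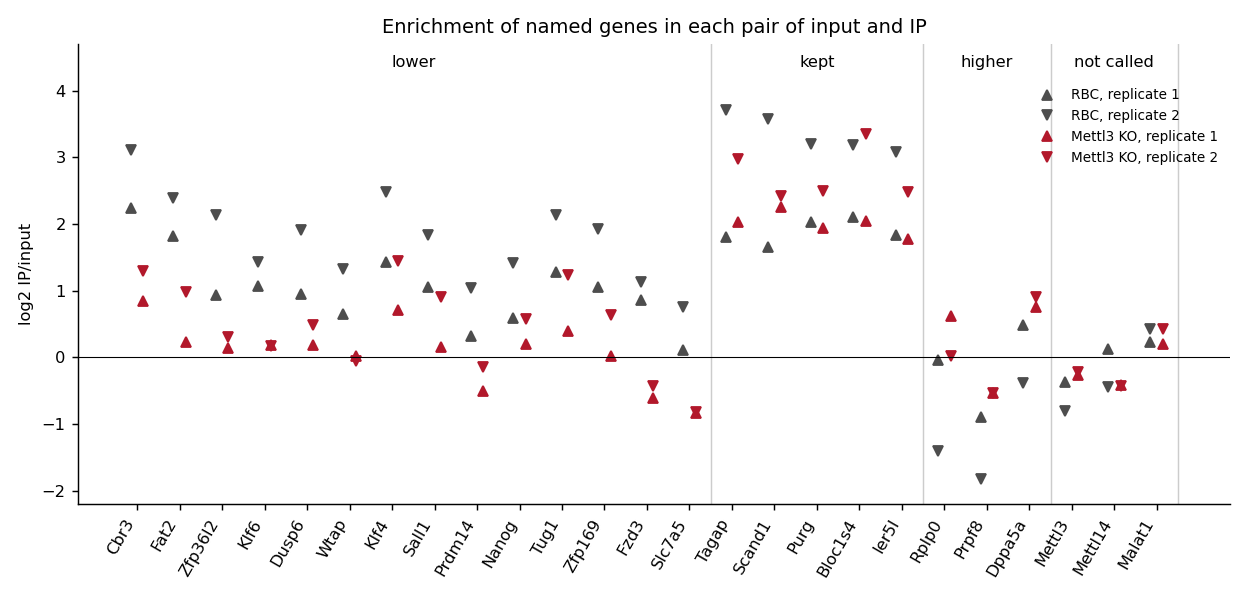
log2 IP/input of named genes in each pair of input and IP (grey, RBC; red, Mettl3 KO; triangles up, replicate 1; down, replicate 2). For Slc7a5, not called enriched in RBC, the RBC values are 0.12 and 0.75 and the Mettl3 KO values -0.83 and -0.82. The kept gene Bloc1s4 has 2.10 and 3.19 against 2.04 and 3.35.

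The genes with higher enrichment were mainly ones that the RBC IP held in low amount. Of the 960, 734 had a negative value in RBC, and the median log2 IP/input went from -0.533 in RBC to 0.285 in Mettl3 KO. In 751 of the 960 both Mettl3 KO values lay above both RBC values, against 4209 of all 21524 genes tested (19.6%). These genes too were called from the same values, so the shares are a description. Because the values are relative within a library, a smaller share of reads on strongly methylated RNAs also raises the others, and this cannot be told apart from a gain of methylation.

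Ribosomal protein genes, short and highly expressed, were the list with the most rises. Of 88 tested 52 were higher (59.1%, against 4.46% of all genes) and 0 lower, with a median of 0.645, which was 1.12 without Mettl3 KO replicate 1 and 0.241 without Mettl3 KO replicate 2. Rplp0, of the large subunit stalk (5:115559467-115563727), had a log2 IP/input that went from -0.04 and -1.40 to 0.62 and 0.02 (1.03 ± 0.20, adjusted p = 0.0049). Rpl18, Rpl19, Rpl37a and Rps3a1 rose by 0.82 to 0.88, while Rps27 (0.62, adjusted p = 0.0579) and Rpl26 (0.40) did not pass. The RNA-seq level of Rplp0 was lower in Mettl3 KO, with a change of -0.88 on the log2 scale. Many pseudogenes share their sequence, and reads of these genes are uncertain to that extent.

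In other lists of abundant RNAs most members did not pass the test, and the shares of higher members stand against 4.46% of all genes. Replication-dependent histone genes, which lack poly(A) tails, had 21 higher of 64 (32.8%) and 0 lower, with a median of 0.667, among them Hist1h4c (1.33), Hist1h2br (0.997) and the linker histone Hist1h1e (0.89), with near-identical copies in the clusters. Splicing factors had 15 higher (34.9%) and 1 lower of 43. The core spliceosome protein Prpf8 went from -0.89 and -1.82 to -0.54 and -0.54 (0.82 ± 0.20), and Prpf6 (0.84), Snrnp200 (0.81) and Sf3b1 (0.67) rose, while the speckle protein Son fell by 0.58. Glycolysis and housekeeping genes had 7 higher (21.2%) and 1 lower of 33. Hspa8 (0.74), Npm1 (0.76) and Pgk1 (0.88) rose, and the hexokinase Hk2 fell by 0.66. Of 29 mitochondrially encoded RNAs 7 were higher (24.1%) and 0 lower, although replicates 1 and 2 of each line stood far apart, as in mt-Co2 with 0.48 and -2.62 in RBC against 1.02 and 0.00 in Mettl3 KO.

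Structured nuclear RNAs lay at the bottom of the enrichment scale and 6 of 17 rose (35.3%), with a median change of 0.957, which was 1.95 without Mettl3 KO replicate 1 and 0.45 without Mettl3 KO replicate 2. Rmrp, the RNA of RNase MRP, had -6.66 and -7.52 in RBC against -5.90 and -4.48 in Mettl3 KO (1.89 ± 0.34, adjusted p = 0.00349), so the IP held little of it in either line. Rn7sk, which holds P-TEFb inactive, rose by 1.18, and Scarna10 and Scarna13 by 1.81 and 1.605. Of 116 snoRNAs 4 were higher (3.45%, under the 4.46% of all genes) and 1, Snora64, was lower by 1.66. Among genes with a mean count of 50 or more and no overlap between the lines, the 8 largest rises, from 2.11 for Gm47287 to 5.03 for Gm25732, held structured RNAs and short models. Gm47287 lies in Rn7s1, a 7SL RNA. Lars2, a mitochondrial tRNA synthetase, had -5.29 and -1.24 in RBC against 1.91 and 0.74 in Mettl3 KO (4.585 ± 0.88), replicates of RBC far apart. Gm42418 overlaps the rRNA gene CT010467.1 on the other strand. Gm15564, Mir6236 and Rn7s1 rose by 4.63, 3.10 and 2.62. The part of leftover rRNA in these values was not tested.

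The direction of change varied with the structure of the transcripts. Among protein-coding genes with a mean count of 50 or more, the longest exon of the longest coding transcript had a median of 2373 bases in 1468 lower genes, 725 in 717 higher genes and 1560 in all 10956. Lower genes had a median of 6 exons, higher genes 13 and all genes 9. In bins of the longest exon the median change went from 0.553 under 250 bases (248 genes, 1.61% lower and 29.8% higher) to -0.163 between 1000 and 2000 (3043 genes) and -0.35 above 4000 (1275 genes, 22.3% lower and 3.14% higher). In each replicate the bins under 500 bases had positive medians and those above 1000 bases negative ones. The enriched genes that lost and those that kept enrichment differed in length. Their median longest exons were 2473 and 1224 bases, and their median mature lengths 3390 and 1755 bases. Exon number did not follow the order of lower and higher genes, with medians of 4 in those that lost and 3 in those that kept. Single-exon genes were 8.79% and 17.6% of these, against 3.27% of lower and 3.35% of higher genes.

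Motif density varied less than exon length. GGACT occurred at a median of 1.08 per kb in lower, 0.823 in higher and 1.04 in all genes. The median was 0.962 per kb in enriched genes that lost enrichment and 1.11 in those that kept it. The share of genes with none was 3.95% among lower, 14.1% among higher, 5.93% among those that lost and 18.5% among those that kept enrichment, against 7.46% of all. Shorter transcripts hold fewer copies by length alone, and 817 genes without the motif had a median change of 0.241 against -0.161 in the 3023 genes with 1 to 1.5 copies per kb. Above 3 copies per kb the median change was -0.0449, in 188 genes. By kind of gene, 10.3% of 14793 protein-coding rows were lower and 4.91% higher, against 3.53% and 3.4% of 736 long intergenic noncoding RNAs and 0.246% and 3.2% of 406 snoRNAs.

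**Figure D5:**
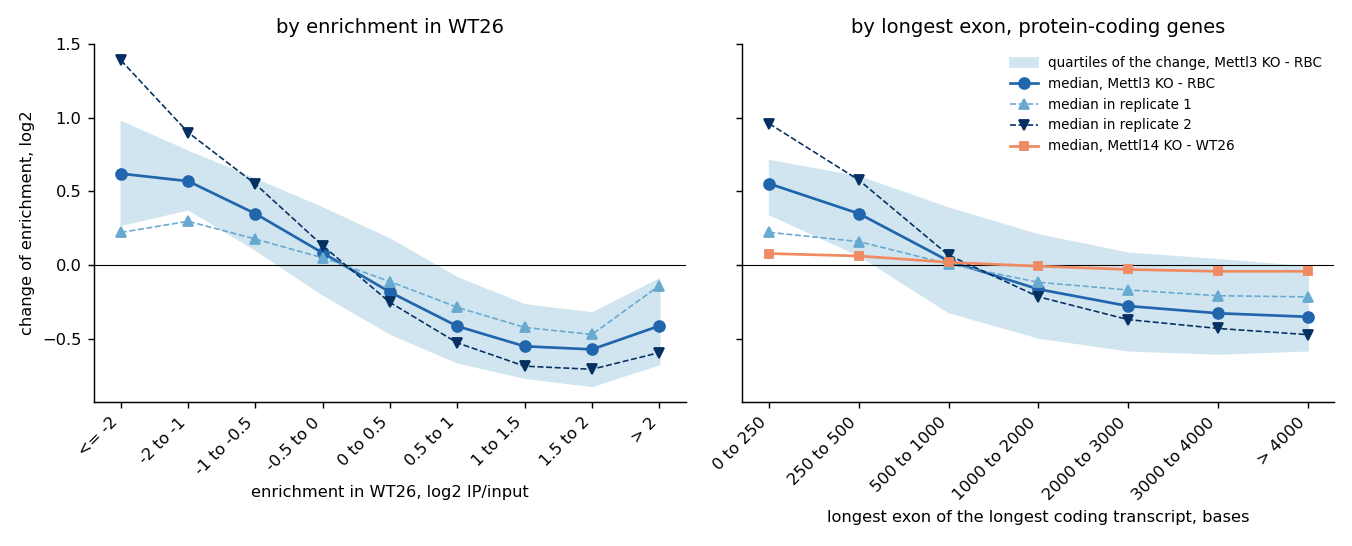
Median change of enrichment (log2, Mettl3 KO minus RBC, with quartiles and each replicate) in bins of WT26 enrichment (left) and of the longest exon (right, with Mettl14 KO minus WT26). On the left the median runs from 0.621 to -0.571 before the last, small bin, and on the right from 0.553 to -0.35, while the Mettl14 KO medians stay between 0.0791 and -0.0417.

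Genes that lost enrichment had a median change of RNA level near 0. In the nuclear RNA-seq libraries, made apart from the MeRIP-seq ones, 6.1% of the 16751 genes tested in both tables were higher and 7.3% lower in Mettl3 KO by more than 1 log2 unit (edgeR, adjusted p at most 0.05), as were 6.15% and 7.43% of all 17021 tested by RNA-seq. Of 525 genes that lost enrichment, 6.1% were higher and 6.29% lower, with a median change of 0.0754. Among all 1600 genes with lower enrichment the shares were 4.19% and 4.12%. Of 267 that kept enrichment, 2.25% were higher and 11.6% lower, with a median of -0.216, and of 877 with higher enrichment 1.6% were higher and 6.96% lower, with a median of -0.244. The median of all genes was -6.57e-05. Among the named genes, Dusp6 fell in both measures (RNA-seq -1.70), Skil and Kmt2d lost enrichment and had higher RNA-seq levels (0.79 and 1.05), and Zfp36l2 lost enrichment at an RNA-seq change of -0.02.

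The Mettl14 KO line, measured against WT26, had few changes of enrichment. With the number in the model 4 genes were lower (0.0186%) and 6 higher (0.0279%), at a median SE of 0.222 that was close to that of the Mettl3 KO comparison. The 572 genes that lost enrichment in Mettl3 KO had a median change of -0.0787 in Mettl14 KO, 400 of them negative, and the 1694 lower genes of -0.0878, 1235 of them negative. Of all 2213 genes enriched in RBC, 1329 had a negative change in Mettl14 KO, with a median of -0.0543. For Zfp36l2 the change was -1.30 in Mettl3 KO and -0.22 in Mettl14 KO, for Klf4 -0.88 and -0.02, for Wtap -0.995 and -0.21, for Slc19a2 -1.52 and -0.28 and for Rplp0 1.03 and 0.23. The comparisons share no library, but the model gave them a common spread and number coefficient. Tested gene by gene, the change in Mettl3 KO minus that in Mettl14 KO was lower for 1 gene (0.00465%) and higher for 5 (0.0232%). For Klf4, Wtap and the other genes of the last comparison the knockouts were therefore not shown to differ. Gm10801, a multi-copy row, passed, with -1.09 ± 0.31 in Mettl3 KO and -5.10 in Mettl14 KO, as did Gm10736, a predicted gene, with 1.17 and -1.22.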

How the data were processed

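Nuclear RNA of 4 mouse ES cell lines was measured by MeRIP-seq (16 libraries, input and IP) and RNA-seq (8 libraries). The authors deposited raw read counts per gene and, for MeRIP-seq, per repeat subfamily. Per the labels, reads were trimmed with cutadapt 1.8.1, aligned to GRCm38 with STAR 2.6.0c and checked with FastQC, and DESeq2 1.26.0 was used. TEtranscripts shared multimapping reads among features. The strand setting of the counting is not given in the sources used here, so overlapping antisense genes are uncertain. All columns matched a label, and 0 were left over.

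Counts were fitted in R 4.3.3 with edgeR 4.0.16 (glmQLFit, glmQLFTest, filterByExpr, DESeq2 1.42.0 size factors) over all 16 MeRIP-seq libraries, and p-values were adjusted (Benjamini-Hochberg) over 22621 features, 21524 of them genes. The fixed design had a block for each of the pairs of input and IP. The difference between numbers 2 and 1 in IP/input correlated over genes at 0.525 to 0.778 between all lines (minimum for pairing 0.1). The pairs of lines with Mettl3 KO were the lowest, at 0.525 to 0.571. A replicate block on the number, shared by all lines, was added after seeing the data. The threshold was an adjusted p of 0.05 or less, and enriched genes also had a log2 IP/input above 1. Values per library are log2 of normalized counts plus a pseudocount of 1. RNA-seq was fitted in 4 groups over 17021 genes. Structure came from GENCODE vM21 (21396 of 21524 genes matched), with Python 3.11.15.

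Named genes had a mean of 50 or more normalized counts over the 8 libraries and were the 12 largest falls and 8 largest rises without overlap, the 8 kept genes most enriched in RBC, up to 6 called and 2 uncalled members per list (for the uncalled, the highest counts; cell type markers could be below 50), Mettl3, Mettl14, and up to 4 genes that differed between knockouts. Others are said to be chosen after their values were seen. Members and lists were chosen with earlier results of these data known. Simulated counts, with 200 of 22621 features changed and the gap between numbers alike in all lines, served to test the models. Alternatives were DESeq2, TMM, library size, other filters, fewer libraries, gene rows only, no block, other blocks and leaving out each replicate. Totals set counting error only. Repeats, peaks and RT-qPCR were not analysed here.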

Additional observations from a re-analysis of the deposited data

Results flagged for a closer look

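The change of enrichment differed between Mettl3 KO and Mettl14 KO in 6 genes by a test of the difference itself (edgeR quasi-likelihood, pairs and replicate number). The difference, Mettl3 KO minus Mettl14 KO on the log2 scale, was 4.02 for Gm10801, 2.39 for Gm10736, 3.72 for n-R5-8s1, 9.51 for Gm47295, 18.9 for Gm22614 and -16.1 for Gm8178. For Gm10801 the Mettl14 KO inputs held 871.6 and 355.7 normalized counts against 112.4 and 75.71 in the WT26 inputs, while the IPs held 57.03 and 39.67 against 338.9 and 172.7. n-R5-8s1 had 0 counts in every library of replicate 2, and Gm8178, Gm22614 and Gm47295 had 0 counts in some libraries, so their fitted differences depend on the prior count and are no measure of size. With at least 10 counts in every RBC and Mettl3 KO library, 1 gene passed.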

How the results depend on the processing

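With 2 pairs per line, the calls depend on the replicate block and on single libraries. In the fixed design the alternatives gave these counts. DESeq2 gave 1133 genes enriched in Mettl3 KO, 37 kept and 1 that differed between knockouts. Scaling by library size gave 5938 genes enriched in RBC, 2569 in Mettl3 KO, 5807 genes enriched in WT26 and 255 kept. Without a filter 5 genes were lower, 19 higher, 1637 enriched in Mettl3 KO, 4 lost, 117 kept and 9 different between knockouts. With only the 8 libraries 1255 were enriched in Mettl3 KO. A replicate block on the number in place of the pairs gave 0 lower, 0 higher, 0 lost, 1969 genes enriched in RBC, 999 in Mettl3 KO, 2153 in WT26, 186 kept and 1 different. Pairs with the replicate block on the number gave 1694 lower, 960 higher, 1184 enriched in Mettl3 KO, 572 lost, 282 kept and 6 different. Leaving out a replicate gave 1 to 3100 enriched in RBC, 0 to 759 in Mettl3 KO, 0 to 8 kept and a median change of WT26-enriched genes of -1.04 to -0.135.

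With pairs and number, a difference above 1 was met by 448 lower and 197 higher genes. DESeq2 gave 13 that differed between knockouts. Library size gave 441 higher, 5263 genes enriched in RBC, 2861 genes enriched in Mettl3 KO, 5110 genes enriched in WT26, 1345 genes enriched in RBC that lost enrichment and 861 kept. The knockouts differed in 120 genes without a filter, in 1 with at least 10 counts and in 105 with a number coefficient for each control and knockout. With only the 8 libraries 797 were lower, 465 higher and 344 lost. Leaving out a replicate gave 11 to 3044 lower, 13 to 2919 higher, 3 to 694 lost, 146 to 359 kept and 5 to 2996 (without Mettl3 KO replicate 1) different between knockouts. Not called with all libraries, Rpph1 had 0.89 without Mettl3 KO replicate 1 and -1.17 without replicate 2, and Snora73a 3.04 and -1.28. From the union of exons the median longest exon was 2626 bases in lower, 1451 in higher and 2092 in all genes. From the longest transcript it was 2373, 725 and 1560, so lower and higher genes stood closer with the union. The cause was not tested.

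Of 141 named calls none reversed in the alternatives with pairs and number. With only the 8 RBC and Mettl3 KO libraries 98 of them were kept, and with scaling by library size 118. With DESeq2 109 were kept, without RBC replicate 1 70, without RBC replicate 2 15, without Mettl3 KO replicate 1 135 and without Mettl3 KO replicate 2 78. The 18 gene list medians had the same sign in 16 alternatives but not the same size. They ranged from 0.241 to 1.12 for ribosomal protein genes, 0.45 to 1.95 for structured RNAs, 0.195 to 0.7 for splicing factors, 0.0932 to 0.945 for snoRNAs, 0.171 to 0.756 for glycolysis and housekeeping, 0.35 to 1.05 for histones, 0.249 to 0.764 for mitochondrial RNAs, 0.0116 to 0.239 for readers and erasers, 0.0247 to 0.156 for H3K9 and HP1 and 0.0192 to 0.244 for long noncoding RNAs. Among lists with negative medians they ranged from -0.631 to -0.301 for pluripotency, -0.351 to -0.158 for Polycomb, -0.498 to -0.191 for H3K4 and H3K36 and -0.686 to -0.327 for Zfp genes, and the other 4 moved by less than 1.5 times. The RNA-seq total of 2312 genes was 1794 to 2587 in the alternatives, 2285 with a replicate block on the number.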
